A study of Mus musculus with 52 samples.

Results

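Single mouse bone marrow cells that hold Cd34 transcripts were set against cells that lack them and carry Klf1, across all genes. CD34 is a surface sialomucin used to sort blood progenitors, and KLF1 is the zinc finger transcription factor that drives red cell genes. All values come from Smart-seq2, in which the RNA of 1 cell per well is copied into full-length cDNA without molecular identifiers. A cell was called Cd34-positive at 10 CPM or more of Cd34, where CPM is the gene's share of that cell's reads, scaled to a common total (in CPM all genes of a cell sum to 1000000). It was called Klf1-high when Cd34 was below 10 CPM and Klf1 was at 200 CPM or more. Of 52 cells in the table, 49 passed the minimum of 50000 reads, the minimum of 1000 genes with a read and the maximum of 20% mitochondrial reads. The groups held 14 Cd34-positive cells and 33 Klf1-high cells, 2 kept cells fell in neither, and 3 cells were left out.

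Both groups share 1 label and 1 origin. They are cells labelled primed HSCs (haematopoietic stem cells), flushed from the femora and tibiae of C57BL/6 mice aged 6 to 8 weeks, after lysis of red cells with ammonium chloride. Every cell has the genotype Cd4-cre;R26Tdtomato, which pairs a Cre driven by Cd4 regulatory sequence with a Cre-dependent tdTomato reporter. The sources used here do not say how many animals gave cells, which gate sorted them or what "primed" means. The cells therefore form 1 sample, no cell is a replicate, and no p-value or standard error is given. Intervals beside shares are exact Clopper-Pearson 95% intervals. They cover counting error only, and reads copied by PCR are not separate molecules.

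The groups were cut from the same reads in which they are compared, so every difference is a description of these cells and none is a test. Cd34 and Klf1 themselves are not results. The lowest Cd34 value inside the Cd34-positive group was 91.0 CPM (cell 2), and the highest value below the minimum was 1.66 CPM (cell 34, which fell in neither group). The lowest Klf1 value in the Klf1-high group was 402 CPM. Klf1 ranged over 0 to 1160.2 CPM (median 7.18) in Cd34-positive cells. Cell 2 was the 1 Cd34-positive cell above 200 CPM of Klf1, and cell 21 came next at 197 CPM.

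In mouse marrow, CD34 is found on multipotent and early committed progenitors and is low or absent on most long-term stem cells. As progenitors commit to the red cell line they lose CD34, gain KLF1 and GATA1, and pass through several rapid divisions before haemoglobin is made. Stem and early progenitor cells divide less often, and they carry transcripts of more than 1 blood lineage at low level.

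Depth differed between the groups. Cd34-positive cells held 424465 to 7481545 reads (median 1083632), and Klf1-high cells held 113234 to 12446479 reads (median 2887970). Genes with a read numbered 4634 to 9624 (median 5758) in Cd34-positive cells and 5697 to 9111 (median 7472) in Klf1-high cells. After each cell was thinned to 300000 reads, the medians were 5138 genes in 14 Cd34-positive cells and 6573 genes in 31 Klf1-high cells, in the same order as at full depth. Mitochondrial reads made up a median of 3.85% in Cd34-positive cells and 3.44% in Klf1-high cells. No read fell on 4 Y-linked genes in either group.

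A gene was tested when the mean of both group means was at least 10 CPM and at least 5 cells held 10 CPM or more. It was called when the ratio of group means, each with 10 CPM added, was at least 2 and the Cd34-positive cell was higher in at least 75% of all between-group cell pairs (at most 25% for the other direction, with a tie counted to each side in equal part). Counts for a gene list are over its tested genes, from 1 of 14 T and NK cell genes to all genes of some lists. Log2 ratios below are of Cd34-positive over Klf1-high means on this scale, which understates differences of low genes. Of 8658 genes tested, 238 were higher in Cd34-positive cells (2.75%) and 695 were lower in them, that is higher in Klf1-high cells (8.03%). Which side is larger depends on the cell-pair part of the rule. By the ratio alone, 1408 genes were higher in Cd34-positive cells (16.3%) and 1055 were lower (12.2%). The 2 directions differed in level. The 238 genes had median group means of 190 CPM in Cd34-positive cells and 28.5 CPM in Klf1-high cells, and the 695 genes had 25.5 CPM in Cd34-positive cells and 98.5 CPM in Klf1-high cells. No gene but Cd34 lay wholly higher in every Cd34-positive cell than in every Klf1-high cell (0.0116% of genes tested), and none lay wholly lower (0%). Called genes came from all autosomes, with 1.03% (chromosome 8) to 4.51% (chromosome 1) of tested genes higher in Cd34-positive cells.

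**Figure D1:**
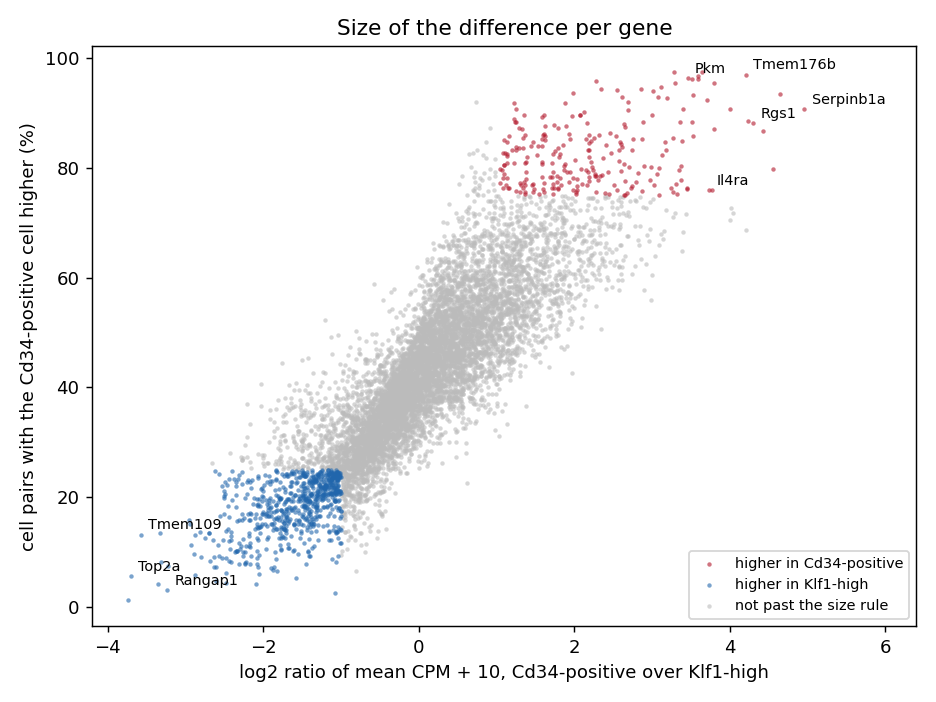
Each point is 1 tested gene. The horizontal axis gives the log2 ratio of mean CPM + 10, Cd34-positive over Klf1-high cells, the vertical axis gives the percent of between-group cell pairs in which the Cd34-positive cell was higher, and colours mark genes past the size rule in either direction. Serpinb1a lies farthest to the right at a log2 ratio of 4.96, and Top2a, at -3.70, is among the genes farthest to the left. Cd34 and Klf1 are not drawn.

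Lineage markers followed the way the cells were chosen. Of 41 HSC and progenitor markers tested, 18 were higher in Cd34-positive cells and 1 (Gfi1b, a repressor of stem and red cell lines) was lower. Of 47 erythroid markers, 25 were lower in Cd34-positive cells and 1 (Nfe2, a bZIP factor of platelet and red cell genes) was higher. Meis1, a homeobox factor of stem cells, ranged over 32.8 to 1037 CPM (median 503) in Cd34-positive cells, against 0 to 408 CPM (median 0.264) in Klf1-high cells. Car1, carbonic anhydrase 1 of early red cells, ranged over 10.4 to 6366 CPM (median 81.5) in Cd34-positive cells, against 219.7 to 11825 CPM (median 5689) in Klf1-high cells. Of 17 megakaryocyte markers 5 were higher in Cd34-positive cells, and of 14 myeloid, mast cell and dendritic markers 4 were (Prtn3, Lyz2, Csf3r and Fcer1g). Of 9 lymphoid markers, 1 (Ikzf1) was lower in Cd34-positive cells (11.1%, against 8.03% of all genes tested). The other 8 were called in neither direction, and the median log2 ratio of the 9 was 1.27.

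Some markers of other cells moved with the groups. The summed level of 14 granulocyte and monocyte genes was 191 to 3128 CPM (median 799) in Cd34-positive cells and 0 to 485 CPM (median 2.58) in Klf1-high cells, with 3 of 5 tested genes higher in Cd34-positive cells and Elane, Ly6c2, Camp and Ltf at 0 in both groups. The summed level of 14 T and NK cell genes was 0 to 1379.6 CPM (median 137) in Cd34-positive cells and 0 to 552 CPM (median 0.391) in Klf1-high cells. Cd3e, Cd3g, Cd4, Trbc1, Trbc2, Bcl11b, Klrb1c and Ncr1 had no read in either group, and neither direction was called for the 1 gene tested. For 12 stromal and endothelial genes the sum was 68.2 to 826 CPM (median 333) in Cd34-positive cells and 3.29 to 299 CPM (median 68.3) in Klf1-high cells, and 1 of 2 tested genes (Pecam1) was higher in Cd34-positive cells. For 10 B cell genes it was 0.668 to 582 CPM (median 23.2) in Cd34-positive cells and 0 to 799.5 CPM (median 3.21) in Klf1-high cells, with 0 of 2 tested genes called and Pax5 at 0. For 7 late red cell genes it was 0 to 864 CPM (median 11) in Cd34-positive cells and 0 to 224 CPM (median 53.5) in Klf1-high cells, and without cell 2 the highest Cd34-positive cell held 133 CPM. The part that these markers play in the results was not tested.

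Protease inhibitors and membrane genes of small families were among the 20 leading genes higher in Cd34-positive cells. Of 17 Serpina3, Serpinb, Ctla2, Tmem176 and Ly6 genes in a list drawn up with earlier results known, 8 were tested, 6 were higher and none was lower. Serpinb1a encodes an inhibitor of granule serine proteases (chromosome 13, 32842092 to 32851185, minus strand, GRCm38). It ranged over 0 to 1335 CPM (median 344) in Cd34-positive cells, against 0 to 84.1 CPM (median 0) in Klf1-high cells. It reached 10 CPM in 12 of 14 Cd34-positive cells and 1 of 33 Klf1-high cells, and the log2 ratio of the means was 4.96. The groups overlapped through 2 Cd34-positive cells at 0 and through Klf1-high cell 15, at 84.1 CPM. Serpina3g, a serpin that inhibits cathepsins, ranged over 129 to 6155 CPM (median 633) in Cd34-positive cells, against 0 to 964 CPM (median 0.241) in Klf1-high cells. All 14 Cd34-positive cells held it, cell 41 at 6155 CPM above the others, and the log2 ratio was 3.80.

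Tmem176a and Tmem176b, neighbouring genes for membrane proteins of intracellular vesicles, were both higher. Tmem176b ranged over 8.56 to 1333 CPM (median 794) in Cd34-positive cells, against 0 to 466 CPM (median 0.304) in Klf1-high cells, with a log2 ratio of 4.21 and the Cd34-positive cell higher in 97% of pairs. Tmem176a ranged over 0 to 481 CPM (median 180.1) in Cd34-positive cells, against 0 to 204 CPM (median 0) in Klf1-high cells (log2 ratio 3.18). Cell 15 held the highest Tmem176b value among Klf1-high cells. The genes point away from each other on chromosome 6 and overlap at their starts in the annotation (Tmem176a from 48840919 to 48847071 on the plus strand and Tmem176b from 48833818 to 48841496 on the minus strand, GRCm38). Without a stated strand setting, reads shared between them cannot be told apart. Gimap genes, which encode GTPases known from lymphocytes, lie in the same stretch. Gimap1 (chromosome 6, 48739054 to 48743795, plus strand) ranged over 0.751 to 1158 CPM (median 215) in Cd34-positive cells, against 0 to 179 CPM (median 0) in Klf1-high cells. Of 4 Gimap genes tested, a family looked at after its values were seen, 3 (Gimap1, Gimap5 and Gimap6) were higher in Cd34-positive cells.

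Ctla2a and Ctla2b encode small proteins that resemble the propeptide of cathepsins and inhibit cysteine proteases. Ctla2a (chromosome 13, 60934155 to 60936625, minus strand) ranged over 77.7 to 1782 CPM (median 675) in Cd34-positive cells, against 0 to 1074 CPM (median 1.24) in Klf1-high cells. Ctla2b (chromosome 13, 60895350 to 60897447, minus strand) ranged over 0 to 1643 CPM (median 309) in Cd34-positive cells, against 0 to 690.2 CPM (median 0) in Klf1-high cells. All Cd34-positive cells held Ctla2a, cell 33 was the highest of them for both genes, and cell 15 was the highest Klf1-high cell for both. The log2 ratios were 3.51 and 3.39. The upstream windows are shown because both genes move together. They are the 250 bases before the first listed start, from RefSeq on GRCm38.p6, 5′ to 3′ on the gene's minus strand, for Ctla2a at chr13:60936626-60936875 and for Ctla2b at chr13:60897448-60897697. Capitals mark the AP-1 motif TGAGTCA, searched on both strands and found here as its reverse complement.
Ctla2a: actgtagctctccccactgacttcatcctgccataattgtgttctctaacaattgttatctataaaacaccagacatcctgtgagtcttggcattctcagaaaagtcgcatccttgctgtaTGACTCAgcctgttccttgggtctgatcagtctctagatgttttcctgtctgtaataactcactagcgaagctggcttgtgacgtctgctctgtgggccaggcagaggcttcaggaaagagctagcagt
Ctla2b: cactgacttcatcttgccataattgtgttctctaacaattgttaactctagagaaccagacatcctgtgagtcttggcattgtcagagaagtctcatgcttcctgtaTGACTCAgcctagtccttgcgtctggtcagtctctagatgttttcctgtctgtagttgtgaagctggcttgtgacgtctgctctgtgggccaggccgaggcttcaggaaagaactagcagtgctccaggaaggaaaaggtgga
Over 228 aligned bases the windows were identical at 208 (91.2%). Those bases lie outside the annotated genes. Whether the estimated counts of Ctla2a and Ctla2b share reads was not tested. The motif lies at base -129 of Ctla2a and base -143 of Ctla2b, counted from the start. It was held by 2 of the 17 windows matched among the 20 leading genes (11.8%), which are these 2, by 0 of 18 windows on the other side, and by 4.43% of all 27025 windows. A match describes letters and not a bound site.

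The other leading genes had varied roles. Pim2, a survival kinase, ranged over 0 to 1296 CPM (median 304) in Cd34-positive cells, against 0 to 44.2 CPM (median 0) in Klf1-high cells. Rgs1, which switches off G protein signals, ranged over 0 to 2456 CPM (median 366) in Cd34-positive cells, against 0 to 390.4 CPM (median 0.28) in Klf1-high cells. Both were spread widely among Cd34-positive cells, and Rgs1 reached 10 CPM in 12 of 14 Cd34-positive cells and 9 of 33 Klf1-high cells. Lcp1 (L-plastin, an actin bundler) ranged over 0 to 1190 CPM (median 462) in Cd34-positive cells, against 0 to 278 CPM (median 1.84) in Klf1-high cells. Cnn2, the actin-binding calponin 2, ranged over 23.6 to 940.5 CPM (median 286) in Cd34-positive cells, against 0 to 181 CPM (median 0) in Klf1-high cells, so every Cd34-positive cell passed 10 CPM, against 8 of 33 Klf1-high cells. Pkm, pyruvate kinase of glycolysis, ranged over 240.1 to 1748 CPM (median 1007) in Cd34-positive cells, against 0 to 574 CPM (median 0.456) in Klf1-high cells. Pkm was thus held at 240 CPM or more by every Cd34-positive cell, while most Klf1-high cells were near 0. Klf1-high cell 44 was the highest of its group with 574 CPM.

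Elmo1, a partner of Rac activators, had medians of 79.3 CPM in Cd34-positive cells and 0 CPM in Klf1-high cells, and Limd2, a small LIM domain protein, 160.2 CPM in Cd34-positive cells and 0 CPM in Klf1-high cells. Medians of Mef2c, a MADS box transcription factor, were 74.2 CPM in Cd34-positive cells and 0 CPM in Klf1-high cells. Those of Ifi203, a DNA-binding member of the interferon-inducible HIN-200 genes, were 156 CPM in Cd34-positive cells and 0 CPM in Klf1-high cells. These 4 genes had log2 ratios of 3.59, 3.51, 3.37 and 3.70. Ndrg1, a gene known to answer low oxygen, had medians of 247 CPM in Cd34-positive cells and 0 CPM in Klf1-high cells. Coro2a, a coronin, had medians of 23.2 CPM in Cd34-positive cells and 0 CPM in Klf1-high cells, and Tes, a LIM protein of focal adhesions, 43.4 CPM in Cd34-positive cells and 0 CPM in Klf1-high cells. A few leading genes rested on few cells. Il4ra, the interleukin 4 receptor, reached 10 CPM in 5 of 14 Cd34-positive cells and 2 of 33 Klf1-high cells, which is 35.7% (interval 12.8 to 64.9) and 6.06% (interval 0.743 to 20.2). Slco4a1, an organic anion transporter, reached it in 6 of 14 Cd34-positive cells and 0 of 33 Klf1-high cells, and 0 of 33 cells allows a share of up to 9.09% by the limit of 3 counts, or 10.6% by the exact interval. Their highest values were 796 CPM (cell 33) and 472 CPM (cell 26).

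**Figure D2:**
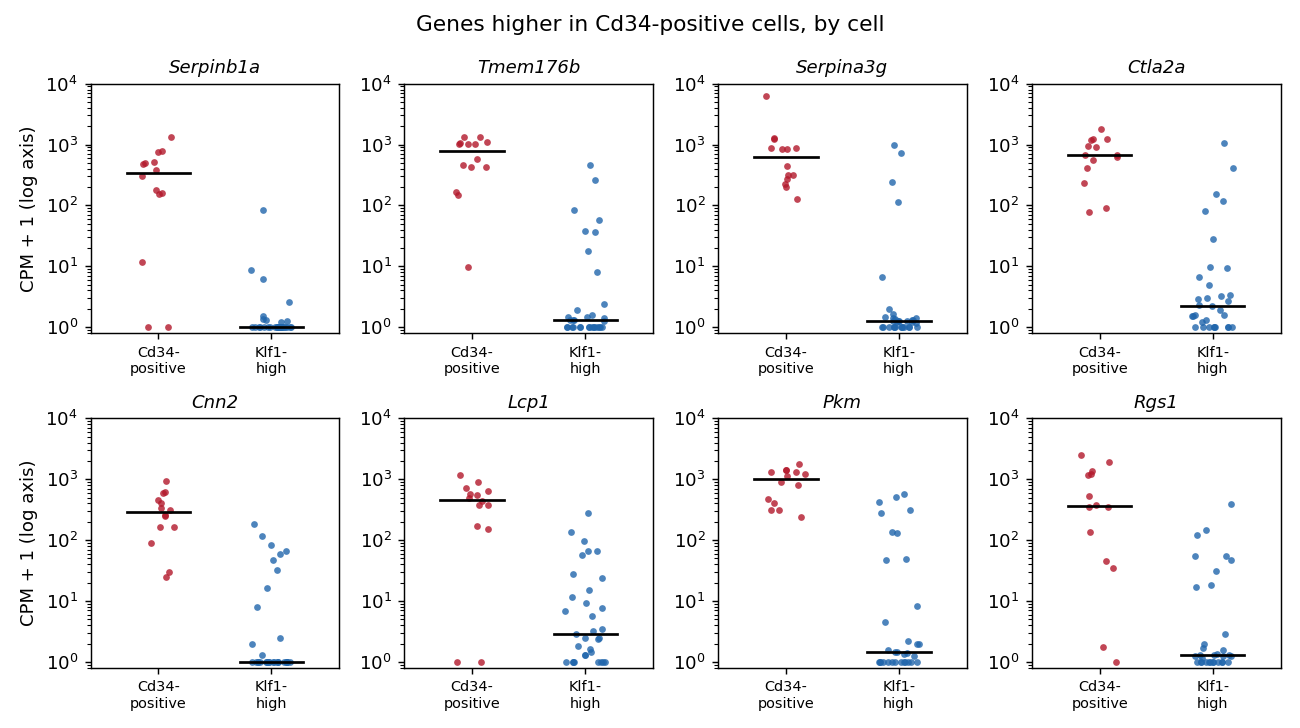
Each point is 1 cell, placed by CPM + 1 on a log axis, with 14 Cd34-positive cells on the left and 33 Klf1-high cells on the right of each panel and the group median as a bar. The 8 panels are genes higher in Cd34-positive cells. Medians of the Cd34-positive cells lie between 286 CPM (Cnn2) and 1007 CPM (Pkm), those of the Klf1-high cells lie below 2 CPM, and single cells of both groups overlap in every panel.

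Genes lower in Cd34-positive cells were led by genes of chromosome segregation and of traffic through the nuclear envelope. Top2a, which untangles sister DNA strands, ranged over 0 to 339.9 CPM (median 1.3) in Cd34-positive cells, against 1.17 to 1264 CPM (median 580.4) in Klf1-high cells. The log2 ratio was -3.70, and Top2a reached 10 CPM in 3 of 14 Cd34-positive cells and 32 of 33 Klf1-high cells. The other Cd34-positive cells beside cell 2 were at 34.3 CPM or less, below most Klf1-high cells. Kpna2, an importin that carries mitotic factors into the nucleus, ranged over 0 to 215 CPM (median 0.541) in Cd34-positive cells, against 0 to 1039.6 CPM (median 253) in Klf1-high cells (log2 ratio -3.32). Rangap1, the activator of Ran's GTPase, ranged over 0 to 226 CPM (median 1.03) in Cd34-positive cells, against 38.1 to 694 CPM (median 247) in Klf1-high cells. Every Klf1-high cell held at least 38.1 CPM of Rangap1, and without cell 2 no Cd34-positive cell reached that. With cell 2 set aside, 3 of 8658 genes (0.0347%) had their lowest Klf1-high cell above every Cd34-positive cell. They were Klf1, Rangap1 and Trib2, a pseudokinase counted here among the erythroid markers.

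Nup85, a scaffold protein of the nuclear pore, ranged over 0 to 174 CPM (median 0.572) in Cd34-positive cells, against 0 to 586 CPM (median 257) in Klf1-high cells. It reached 10 CPM in 2 of 14 Cd34-positive cells and 32 of 33 Klf1-high cells, or 14.3% (interval 1.78 to 42.8) and 97% (interval 84.2 to 99.9). Of 24 nuclear pore genes tested 7 were lower in Cd34-positive cells (Nup85, Nup155, Nup93, Aaas, Nup205, Nup43 and Nup107) and none was higher, with a median log2 ratio of -0.63. Of 30 nuclear transport genes 7 were lower (Kpna2, Rangap1, Rcc1, Ran, Ipo5, Tnpo1 and Tnpo3) and none was higher, with a median of -0.40. Over all genes tested the median was 0.03, and 8.03% were lower in Cd34-positive cells. Both families were chosen after their values were seen. Ran itself ranged over 3.84 to 1183 CPM (median 455) in Cd34-positive cells, against 369 to 1627 CPM (median 987) in Klf1-high cells. Of 8 tubulins 3 were lower, and Tubb4b ranged over 0 to 1574 CPM (median 62.9) in Cd34-positive cells, against 93.9 to 3167 CPM (median 1565) in Klf1-high cells.

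The upstream windows of Top2a and Kpna2 are shown because promoters of mitotic genes are known for CCAAT boxes and for cell cycle homology elements. They are again the 250 bases before the first listed start, from RefSeq on GRCm38.p6, 5′ to 3′ on the minus strand, at chr11:99024190-99024439 and chr11:106999526-106999775. Capitals mark the CCAAT box, the homology element TTTGAA and its variant with the letters TTCGAA. Each was searched on both strands, so the reverse complements are in capitals too.
Top2a: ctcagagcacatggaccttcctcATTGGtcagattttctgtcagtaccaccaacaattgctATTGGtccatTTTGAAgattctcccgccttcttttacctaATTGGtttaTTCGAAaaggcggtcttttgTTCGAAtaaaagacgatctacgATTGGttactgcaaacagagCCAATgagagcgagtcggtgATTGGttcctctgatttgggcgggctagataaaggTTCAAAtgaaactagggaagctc
Kpna2: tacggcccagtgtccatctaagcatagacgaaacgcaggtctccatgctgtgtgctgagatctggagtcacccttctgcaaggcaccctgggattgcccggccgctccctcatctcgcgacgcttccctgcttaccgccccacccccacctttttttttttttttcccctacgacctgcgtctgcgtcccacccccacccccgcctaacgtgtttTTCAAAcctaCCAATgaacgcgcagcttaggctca
Top2a held 6 CCAAT, 2 TTTGAA and 2 TTCGAA matches, and Kpna2 held 1 CCAAT and 1 TTTGAA match. Among the 20 genes that led the Klf1-high side, 18 had a window, and CCAAT stood in 12 of them (66.7%) and TTTGAA in 7 (38.9%). Among the 20 that led the Cd34-positive side, 17 had a window, with CCAAT in 6 (35.3%) and TTTGAA in 2 (11.8%). All 27025 windows held CCAAT in 34.5% and TTTGAA in 16.3%. TTCGAA stood in 0 of the 17 Cd34-positive windows, in 2 of the 18 Klf1-high windows and in 1.34% of all. Searches of both sets for the GATA letters AGATAA (1 of 17 and 2 of 18, against 10.3% of all) and the ETS letters CGGAAGT (1 of 17 and 1 of 18, against 4.98%) found few. These counts are descriptions, and a window without the letters says nothing of the factor.

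Most division genes were lower. Of 40 mitosis and chromosome segregation genes, all tested, 26 were lower in Cd34-positive cells and none was higher, with a median log2 ratio of -1.62. Cells held 3 to 38 of the 40 genes at 10 CPM or more (median 8) in the Cd34-positive group and 9 to 39 (median 35) in the Klf1-high group. At least 20 of them were held by 2 of 14 Cd34-positive cells (cells 2 and 21) and by 27 of 33 Klf1-high cells. Without cell 2, 30 of the 40 genes were lower, and with all cells thinned to 300000 reads 26 were. Plk1, a kinase of mitotic entry, ranged over 0 to 254 CPM (median 0) in Cd34-positive cells, against 0 to 652 CPM (median 78.6) in Klf1-high cells. Bub1b, of the spindle checkpoint, ranged over 0 to 82.5 CPM (median 0) in Cd34-positive cells, against 0 to 477 CPM (median 97.8) in Klf1-high cells. Cell 2 was the highest Cd34-positive cell for both. Mki67, which coats mitotic chromosomes, ranged over 0 to 276 CPM (median 0.641) in Cd34-positive cells, against 2.8 to 1339.9 CPM (median 317) in Klf1-high cells. Ccnb2 was not past the rule, at 0 to 984 CPM (median 1.76) in Cd34-positive cells, against 0 to 643.8 CPM (median 179) in Klf1-high cells, with cell 21 above every Klf1-high cell. Upstream windows of 23 of the 26 genes held CCAAT in 18 cases (78.3%) and TTTGAA in 9 (39.1%).

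DNA replication and nucleotide supply gave the same order with smaller sizes. Of 45 genes 21 were lower in Cd34-positive cells and none was higher (median log2 ratio -1.21). Cdc45, of the replicative helicase, had medians of 0 CPM in Cd34-positive cells and 90.7 CPM in Klf1-high cells. Rrm2, the small subunit of ribonucleotide reductase, ranged over 0 to 315 CPM (median 0) in Cd34-positive cells, against 0 to 971 CPM (median 129) in Klf1-high cells, and Fen1, the flap endonuclease, over 0 to 213 CPM (median 3.16) in Cd34-positive cells, against 0.877 to 1245 CPM (median 257) in Klf1-high cells. Mcm6, of the same helicase, was not past the rule and was high in both groups, at 1.5 to 1236 CPM (median 546) in Cd34-positive cells, against 239 to 2250 CPM (median 764) in Klf1-high cells. Cells held 11 to 45 of the genes at 10 CPM or more (median 21.5) in the Cd34-positive group and 25 to 45 (median 42) in the Klf1-high group. Chaf1a, which places histones on new DNA, had medians of 0 CPM in Cd34-positive cells and 138 CPM in Klf1-high cells, and cells 2 and 21 were the highest Cd34-positive cells for it.

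Other regulators of the cycle went both ways in level, though calls ran one way. Of 23 G1 cyclin, CDK and inhibitor genes 5 were lower in Cd34-positive cells (Ccne1, Ccna2, E2f8, Cks1b and Cks2) and none was higher, while the list's median log2 ratio was 0.29. Cks2 ranged over 0 to 420 CPM (median 52.2) in Cd34-positive cells, against 53 to 775 CPM (median 332) in Klf1-high cells. Ccne1, cyclin E1, ranged over 0 to 128 CPM (median 0.5) in Cd34-positive cells, against 0 to 564 CPM (median 104) in Klf1-high cells. Cdk6, not past the rule, ranged over 226 to 2324 CPM (median 882) in Cd34-positive cells, against 141 to 1845 CPM (median 774) in Klf1-high cells. With median-of-ratios scaling 2 genes of this list were higher in Cd34-positive cells.

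**Figure D3:**
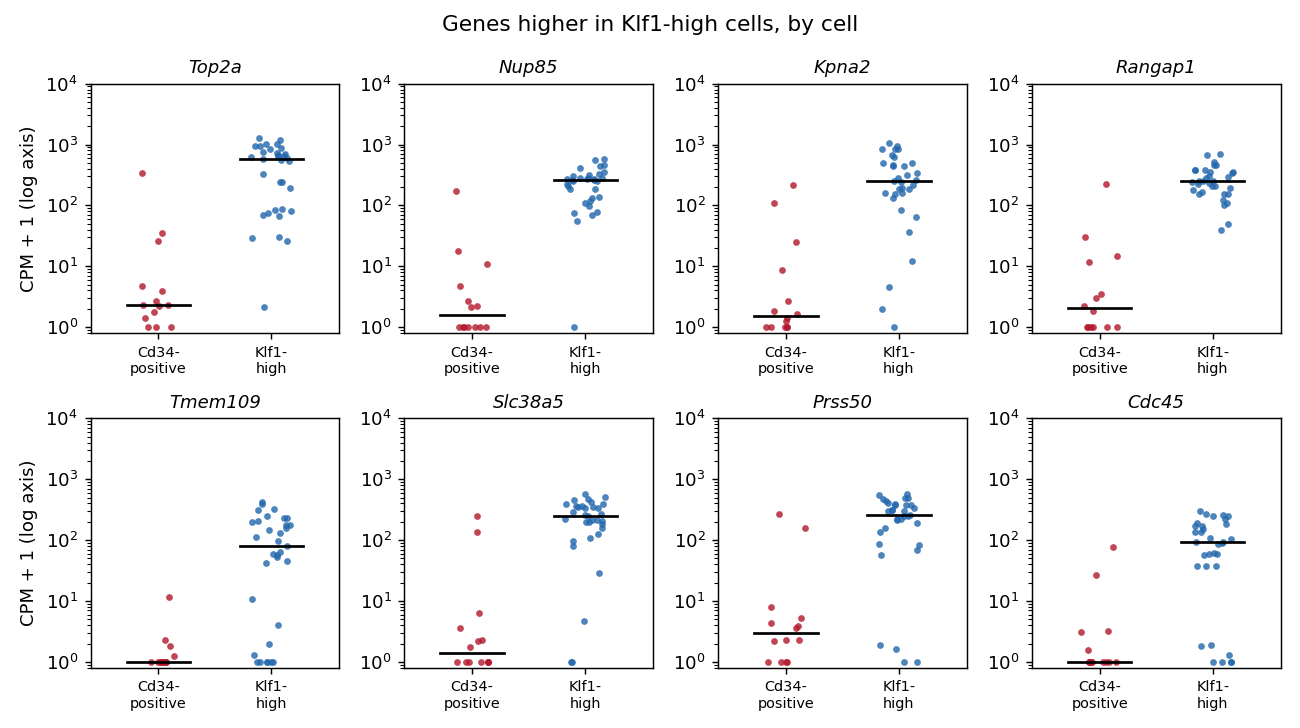
Each point is 1 cell, placed by CPM + 1 on a log axis, with 14 Cd34-positive cells on the left and 33 Klf1-high cells on the right of each panel and the group median as a bar. The 8 panels are genes higher in Klf1-high cells. Cell 2 is the highest Cd34-positive point in all 8, up to 340 CPM of Top2a, and most other Cd34-positive cells lie near 0.

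Several genes with no place in the cycle lists were also among the 20. Tmem109, a membrane protein of the nucleus and endoplasmic reticulum, ranged over 0 to 10.4 CPM (median 0) in Cd34-positive cells, against 0 to 420.4 CPM (median 78.8) in Klf1-high cells. Slc38a5, a glutamine and glycine transporter, ranged over 0 to 244 CPM (median 0.375) in Cd34-positive cells, against 0 to 567 CPM (median 250.2) in Klf1-high cells. Prss50, a serine protease known from testis, ranged over 0 to 269.6 CPM (median 1.94) in Cd34-positive cells, against 0 to 578 CPM (median 256) in Klf1-high cells. Cela1, a pancreatic type elastase, had medians of 0 CPM in Cd34-positive cells and 106 CPM in Klf1-high cells, and Ptges2, a prostaglandin E synthase, 0 CPM in Cd34-positive cells and 82.8 CPM in Klf1-high cells. The log2 ratios of these 5 genes lay between -3.57 (Tmem109) and -2.69 (Prss50). Metallothioneins, which bind zinc and copper, were a family chosen after their values were seen. Mt1 ranged over 0 to 559 CPM (median 58.9) in Cd34-positive cells, against 0 to 1529 CPM (median 556) in Klf1-high cells, and Mt2 over 0 to 188 CPM (median 3.51) in Cd34-positive cells, against 0 to 600.4 CPM (median 216) in Klf1-high cells, with log2 ratios of -2.44 and -2.10. Of 28 solute carriers tested 7 were lower in Cd34-positive cells and none was higher. Slc43a1, a carrier of large neutral amino acids, had medians of 0.927 CPM in Cd34-positive cells and 143 CPM in Klf1-high cells.

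Some immediate early genes, which cells switch on within minutes of a stimulus, were higher in Cd34-positive cells. Of 24 tested 9 were higher (Jun, Egr1, Ier2, Ier3, Nr4a1, Zfp36, Zfp36l2, Btg2 and Klf6) and none was lower, with a median log2 ratio of 1.52. Nr4a1, a nuclear receptor, ranged over 0 to 2002 CPM (median 450) in Cd34-positive cells, against 0 to 1909 CPM (median 0.28) in Klf1-high cells. Zfp36, which destabilises short-lived mRNAs, ranged over 0 to 3026 CPM (median 602) in Cd34-positive cells, against 0 to 1528 CPM (median 9.49) in Klf1-high cells. Btg2, which slows division, ranged over 0 to 1168 CPM (median 176) in Cd34-positive cells, against 0 to 341.9 CPM (median 0.518) in Klf1-high cells. Fos was not past the rule, at 0.751 to 2551 CPM (median 809) in Cd34-positive cells, against 0.173 to 4095 CPM (median 506) in Klf1-high cells, and neither was Myc, at 9.01 to 2043 CPM (median 732) in Cd34-positive cells, against 194 to 1373 CPM (median 543) in Klf1-high cells. The highest Klf1-high cell was cell 36 for Fos, above every Cd34-positive cell, and cell 38 for Nr4a1, close to the highest Cd34-positive cell. Summed over the list, levels were 2802 to 23697 CPM (median 9756) in Cd34-positive cells and 861 to 20401 CPM (median 3517) in Klf1-high cells.

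Some signalling genes downstream of cytokines were higher too. Of 21 JAK-STAT and SOCS genes 5 were higher in Cd34-positive cells (Stat3, Stat4, Pim1, Pim2 and Ptpn6) and none was lower, with a median log2 ratio of 1.10. Stat4 ranged over 0 to 627 CPM (median 18.3) in Cd34-positive cells, against 0 to 25.3 CPM (median 0) in Klf1-high cells, with cell 47 the highest by far. Pim1 ranged over 0 to 232 CPM (median 15.4) in Cd34-positive cells, against 0 to 39.8 CPM (median 0) in Klf1-high cells. Stat3 had medians of 197 CPM in Cd34-positive cells and 30.4 CPM in Klf1-high cells. Jak1, not past the rule, had a log2 ratio of 0.15, at 0 to 842 CPM (median 291) in Cd34-positive cells, against 35.8 to 688 CPM (median 240) in Klf1-high cells.

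Some receptors were called in each direction. Of 25 cytokine and growth factor receptors 4 were higher in Cd34-positive cells (among them Csf3r, Il4ra and Tie1) and 3 were lower (Epor, Il1rl1 and Ifngr1). The shares were 16% higher and 12% lower, against 2.75% and 8.03% of all genes tested. Csf3r, the G-CSF receptor, reached 10 CPM in 5 of 14 Cd34-positive cells and 0 of 33 Klf1-high cells, with cell 51 the highest at 755 CPM. Tie1, a receptor of endothelium and stem cells, ranged over 0 to 559.7 CPM (median 27.6) in Cd34-positive cells, against 0 to 375 CPM (median 0) in Klf1-high cells. Ifngr1, the interferon gamma receptor, went the other way, at 0 to 596 CPM (median 220) in Cd34-positive cells, against 38.5 to 1489.3 CPM (median 712) in Klf1-high cells (log2 ratio -1.82). Epor, the erythropoietin receptor, had medians of 0.376 CPM in Cd34-positive cells and 196 CPM in Klf1-high cells. Kit, which binds stem cell factor, was not past the rule, at 225 to 1271 CPM (median 601) in Cd34-positive cells, against 139 to 1389 CPM (median 436) in Klf1-high cells.

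G protein signalling and adhesion genes were likewise called in each direction. Of 26 G protein genes 4 were higher in Cd34-positive cells (Rgs1, Adgrg1, Adgrl4 and Gpr171) and 2 were lower (Rgs10 and Adgre5). Higher genes made up 15.4%, against 2.75% of all genes tested. Lower genes made up 7.69%, near the 8.03% of all genes tested. Adgrg1, an adhesion receptor of stem cells, had medians of 1893 CPM in Cd34-positive cells and 244 CPM in Klf1-high cells. Rgs10 ranged over 0 to 32.7 CPM (median 0) in Cd34-positive cells, against 0 to 191 CPM (median 38.7) in Klf1-high cells, the reverse of Rgs1. Of 19 adhesion and migration genes 3 were higher (F11r, Pecam1 and Esam) and 3 were lower (Itga4, Itga5 and Cd44). Each direction made up 15.8%, against 2.75% higher and 8.03% lower over all genes tested. Pecam1 had a log2 ratio of 1.87, which turned to -0.45 when cells were not filtered. Esam, an endothelial junction protein also used to sort stem cells, ranged over 0 to 741.4 CPM (median 243) in Cd34-positive cells, against 0 to 127 CPM (median 0) in Klf1-high cells. F11r, a junction protein, ranged over 0 to 339 CPM (median 25.5) in Cd34-positive cells, against 0 to 54.7 CPM (median 0) in Klf1-high cells, and Cd44, the hyaluronan receptor, over 0 to 188 CPM (median 16.9) in Cd34-positive cells, against 0.317 to 466 CPM (median 132) in Klf1-high cells. With median-of-ratios scaling 1 adhesion gene was lower in place of 3.

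Some genes that handle actin were higher in Cd34-positive cells while actin itself was not past the rule. Of 38 actin and small GTPase genes tested 9 were higher (Arpc1b, Tmsb4x, Coro1a, Lcp1, Vasp, Tpm3, Zyx, Arhgdib and Arhgef6) and none was lower. The list's median log2 ratio was 0.44. Zyx, of focal adhesions, ranged over 2.29 to 1412 CPM (median 359.8) in Cd34-positive cells, against 0 to 494 CPM (median 1.1) in Klf1-high cells. Coro1a, a coronin of blood cells, ranged over 0.936 to 1871 CPM (median 826) in Cd34-positive cells, against 0 to 997 CPM (median 0.549) in Klf1-high cells. Cell 2 was the lowest Cd34-positive cell for Coro1a, at 0.936 CPM. Actb was not past the rule, at 1582 to 4675 CPM (median 3206) in Cd34-positive cells, against 1518 to 4534 CPM (median 2776) in Klf1-high cells, and neither was Actg1, at 1669.8 to 7833 CPM (median 3490.3) in Cd34-positive cells, against 778 to 4108 CPM (median 2232) in Klf1-high cells. Coro1c, another coronin, was lower, at 0 to 642 CPM (median 1.5) in Cd34-positive cells, against 0 to 453 CPM (median 170.3) in Klf1-high cells.

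MHC class I genes were higher in the Cd34-positive group in part. Of 24 antigen processing genes 5 were higher (H2-K1, H2-Q4, H2-Q7, H2-T23 and Tap2) and none was lower. H2-K1 ranged over 1519 to 8007 CPM (median 3619.6) in Cd34-positive cells, against 395 to 3897 CPM (median 1445) in Klf1-high cells (log2 ratio 1.22, 91.8% of pairs). B2m, its light chain, was higher in 92% of pairs but not past the ratio, at 1218 to 3839.8 CPM (median 1710) in Cd34-positive cells, against 463 to 2211 CPM (median 1200.5) in Klf1-high cells. Tap2, of the peptide transporter, ranged over 3.59 to 1076 CPM (median 299) in Cd34-positive cells, against 0 to 561 CPM (median 145) in Klf1-high cells. Of 32 interferon-inducible genes 2 were higher (Ifitm1 and Ifitm3) and 1 (Isg20) was lower, and without cell 15, 4 were higher. With cell 15 kept, the shares were 6.25% higher and 3.1% lower, against 2.75% and 8.03% of all genes tested. Ifitm1 ranged over 0 to 1185 CPM (median 524.99) in Cd34-positive cells, against 0 to 671 CPM (median 0) in Klf1-high cells, and Ifitm3 over 226 to 1452 CPM (median 531) in Cd34-positive cells, against 0.323 to 816 CPM (median 101) in Klf1-high cells. H2 genes and Ifitm genes are near copies, so their estimated counts are uncertain in their split.

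**Figure D4:**
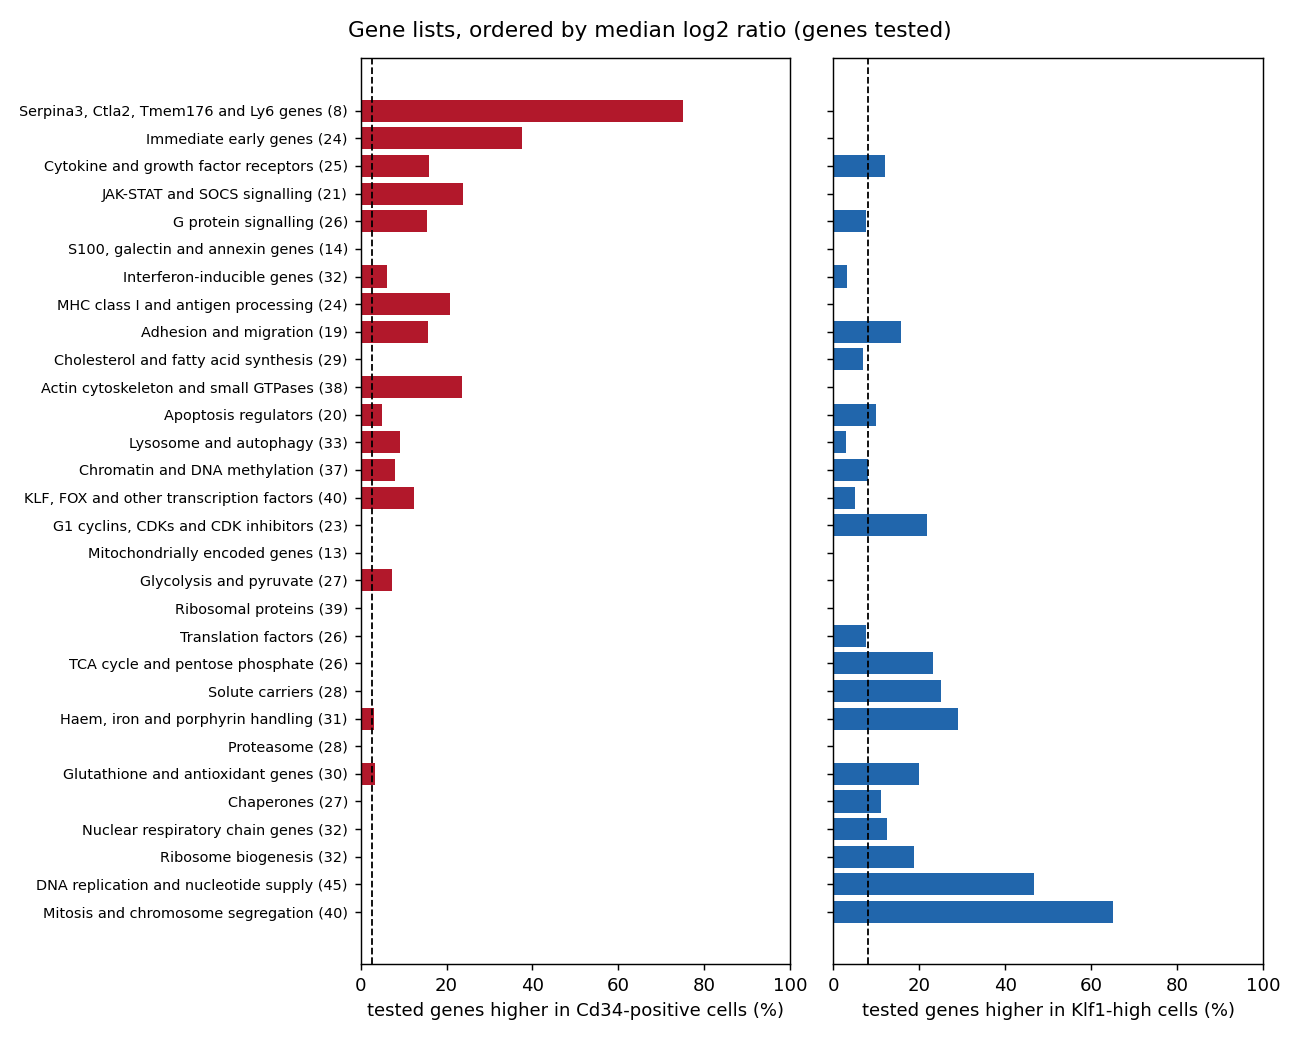
Bars give, for each of 30 gene lists, the percent of its tested genes higher in Cd34-positive cells (left) and higher in Klf1-high cells (right), with the number tested in brackets. Dashed lines mark the same percent over all genes tested, 2.75% on the left and 8.03% on the right. Lists run from the highest median log2 ratio at the top to the lowest at the bottom, where mitosis reaches 65.0% on the right.

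Transcription factors outside the lineage lists gave 5 of 40 higher in Cd34-positive cells (Klf6, Elf1, Bhlhe41, Mef2c and Hif1a) and 2 lower (Mybl2 and Mxi1). The shares were 12.5% higher and 5% lower, against 2.75% and 8.03% of all genes tested. Klf6 ranged over 0 to 425 CPM (median 144) in Cd34-positive cells, against 0 to 474 CPM (median 0) in Klf1-high cells. Bhlhe41, a clock repressor, was abundant in both groups, with medians of 11428 CPM in Cd34-positive cells and 2889.5 CPM in Klf1-high cells. Mybl2, an activator of mitotic genes, ranged over 0 to 191 CPM (median 0) in Cd34-positive cells, against 0 to 368 CPM (median 54.4) in Klf1-high cells, with cell 2 the only Cd34-positive cell at 10 CPM or more. Myb was not past the rule, at 3.28 to 994 CPM (median 437) in Cd34-positive cells, against 227 to 1240.3 CPM (median 512) in Klf1-high cells. At equal depth of 300000 reads, 3 factors of this list were higher and 0 were lower.

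Metabolic lists differed in the direction of their called genes, and most of their genes were not called. Of 27 glycolysis genes 2 were higher in Cd34-positive cells (Pkm, given above, and Hk2) and none was lower. The higher share was 7.41%, against 2.75% of all genes tested. The other 25 were not called, and the list's median log2 ratio was 0.10. Gapdh had a log2 ratio of 0.05, at 599.9 to 2657 CPM (median 1584) in Cd34-positive cells, against 1003 to 2514 CPM (median 1562) in Klf1-high cells. Hk2, hexokinase 2, reached 10 CPM in 4 of 14 Cd34-positive cells and 2 of 33 Klf1-high cells. Cell 47 held 57.1% of its summed CPM in Cd34-positive cells, and cell 36 held 80.5% in Klf1-high cells. Of 26 TCA cycle and pentose phosphate genes 6 were lower (Cs, Idh3a, Dlst, Fh1, Mdh2 and Tkt, 23.1%) and none was higher. Cs, citrate synthase, ranged over 0 to 477 CPM (median 168) in Cd34-positive cells, against 137 to 999 CPM (median 479.7) in Klf1-high cells. Fh1, fumarase, ranged over 0 to 191 CPM (median 21.6) in Cd34-positive cells, against 0.988 to 327 CPM (median 164) in Klf1-high cells. Of 32 nuclear genes of the respiratory chain 4 were lower (12.5%, against 8.03% of all genes tested). Cox6a1 ranged over 20.8 to 446 CPM (median 122) in Cd34-positive cells, against 139 to 854 CPM (median 350.2) in Klf1-high cells. With median-of-ratios scaling the lower genes numbered 3 for the TCA list and 0 for the respiratory list, and without cell 2 the respiratory list had 7. None of 13 mitochondrially encoded genes was called, and mt-Co1 ranged over 6974 to 17443 CPM (median 11124) in Cd34-positive cells, against 5652 to 13725 CPM (median 8747) in Klf1-high cells.

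Growth lists differed in the share of genes called. Of 32 ribosome biogenesis genes 6 were lower in Cd34-positive cells (18.8%, against 8.03% of all genes tested). None was higher, and the median log2 ratio was -0.71. Polr1c, a subunit of RNA polymerases I and III, ranged over 0 to 156 CPM (median 1.41) in Cd34-positive cells, against 0 to 472 CPM (median 115) in Klf1-high cells. Nolc1, a nucleolar phosphoprotein, ranged over 0 to 431 CPM (median 85.3) in Cd34-positive cells, against 20.2 to 731 CPM (median 334) in Klf1-high cells, and Npm1, not past the rule, over 770.3 to 2547 CPM (median 1699) in Cd34-positive cells, against 1133 to 4269.6 CPM (median 2550.5) in Klf1-high cells. None of 39 ribosomal protein genes was called in either direction, with a median of -0.27. Of 26 translation factors 2 were lower (Pabpc4 and Eif4e, 7.69%) and of 27 chaperones 3 were (Fkbp4, Hspd1 and Hspa9, 11.1%), shares near the 8.03% of all genes tested, and of 28 proteasome genes none was called. Hspd1, the mitochondrial chaperonin, ranged over 2.56 to 857 CPM (median 308) in Cd34-positive cells, against 177 to 1964 CPM (median 1055) in Klf1-high cells. Hsp90ab1 had a log2 ratio of -0.05, at 2577 to 4946 CPM (median 3801) in Cd34-positive cells, against 2655 to 5302 CPM (median 4052) in Klf1-high cells. None of 14 S100, galectin and annexin genes was called.

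Most haem, iron and redox genes were called in neither direction, and most of those called were lower in Cd34-positive cells. Of 31 haem and iron genes 9 were lower (among them Cpox, Fech, Alad, Slc25a38, Slc11a2, Slc40a1, Steap3 and Glrx5) and 1 (Ncoa4) was higher. Steap3, a ferric reductase of endosomes, ranged over 0 to 306 CPM (median 0) in Cd34-positive cells, against 0 to 479 CPM (median 241) in Klf1-high cells. Ncoa4, which delivers ferritin to lysosomes, ranged over 0 to 1173 CPM (median 421) in Cd34-positive cells, against 0 to 434 CPM (median 79.2) in Klf1-high cells. Ftl1, ferritin light chain, had a log2 ratio of 0.05, at 1129 to 4224 CPM (median 2485) in Cd34-positive cells, against 1298 to 4235 CPM (median 2223) in Klf1-high cells. Of 30 glutathione and antioxidant genes 6 were lower and 1 (Gstm1) was higher. Gstm1, a glutathione transferase, ranged over 0 to 627 CPM (median 144) in Cd34-positive cells, against 0 to 121 CPM (median 0) in Klf1-high cells, and Keap1, the brake of the antioxidant factor NRF2, over 0 to 231 CPM (median 2.55) in Cd34-positive cells, against 0 to 355 CPM (median 186) in Klf1-high cells.

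The remaining lists held few calls. Over all genes tested, 2.75% were higher in Cd34-positive cells and 8.03% were lower. Of 33 lysosome and autophagy genes 3 were higher in Cd34-positive cells (Lamp2, Cd63 and Laptm5) and 1 (Wipi1) was lower. Laptm5, a lysosomal membrane protein of blood cells, ranged over 3.75 to 2573 CPM (median 1416) in Cd34-positive cells, against 10.2 to 1304 CPM (median 208) in Klf1-high cells. Of 20 apoptosis regulators 1 was higher, Bcl2, at 0 to 294 CPM (median 50.8) in Cd34-positive cells, against 0 to 193 CPM (median 0) in Klf1-high cells. The 2 lower genes were 10% of those tested in the list, near the share of all genes tested. Among them was Bax, a pore-forming inducer of cell death, at 0 to 203 CPM (median 38) in Cd34-positive cells, against 0 to 241 CPM (median 104) in Klf1-high cells. Of 37 chromatin genes 3 were higher (Tet1, H1f0 and H2afy, 8.11%) and 3 were lower (Hmgb2, H2afx and H2afz, 8.11%). The lower share was near that of all genes tested, and with median-of-ratios scaling 0 were lower. H1f0, the linker histone of resting cells, ranged over 0 to 904 CPM (median 260.4) in Cd34-positive cells, against 0 to 481 CPM (median 2.02) in Klf1-high cells. H2afz, a histone variant, had medians of 551.2 CPM in Cd34-positive cells and 1321 CPM in Klf1-high cells. Of 29 cholesterol and fatty acid genes 2 were lower (Acly and Fads2, 6.9%), near the share of all genes tested. One long noncoding transcript, Zfas1, was called, at 0 to 135 CPM (median 97.4) in Cd34-positive cells, against 49.7 to 400.1 CPM (median 146) in Klf1-high cells.

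Single cells did not follow their group to the same degree. The 20 leading Cd34-positive genes summed to 1841 to 13572 CPM (median 7572) in Cd34-positive cells and 2.11 to 5269 CPM (median 106) in Klf1-high cells. The 20 leading Klf1-high genes summed to 3.003 to 2514 CPM (median 49.1) in Cd34-positive cells and 779 to 5800 CPM (median 3783) in Klf1-high cells. The groups overlapped on both sums. Cell 2 was the lowest Cd34-positive cell on the first sum and the highest on the second, and it was the highest Cd34-positive cell for 19 of the 20 Klf1-high genes. Cell 2 was also the deepest Cd34-positive cell and held 6366 CPM of Car1. Without it the highest second sum among Cd34-positive cells was 623 CPM (cell 21).

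Cell 15 was its counterpart on the Klf1-high side. It held 669.5 CPM of Klf1, 377 CPM of Car1 and 408 CPM of Meis1, with 17 of the 20 leading Cd34-positive genes at 10 CPM or more. It was the highest Klf1-high cell for 12 of those 20 genes, and cell 3 was for 3. The 20 Cd34-positive genes were selected on these same cells, so these sums order the cells and support nothing more. Over the 14 Cd34-positive cells, the first sum and Car1 had a Spearman correlation of -0.82, a description over points that share the CPM total of each cell.

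Likeness of whole transcriptomes was given by Pearson correlation of log2(CPM + 1) over the genes tested. The median was 0.33 between Cd34-positive cells, 0.50 between Klf1-high cells and 0.32 between the groups. The nearest cell of every Klf1-high cell was another Klf1-high cell. Of the 14 Cd34-positive cells 6 had a Cd34-positive cell nearest and 8 had a Klf1-high cell nearest, which was cell 15 in 6 of them. Cell 2 had a median of 0.55 to Klf1-high cells and 0.34 to other Cd34-positive cells, and its nearest was cell 4. Depth differs between these cells, and its part in the correlations was not tested. Cells 6 and 13, both Klf1-high, correlated at 0.92. Their chi-square per gene was 15.2 over 7233 genes, against 105 for cells 4 and 6. This covers counting error only, and reads without molecular identifiers are not independent, so it does not show whether they are separate cells. Both were kept as labelled.

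**Figure D5:**
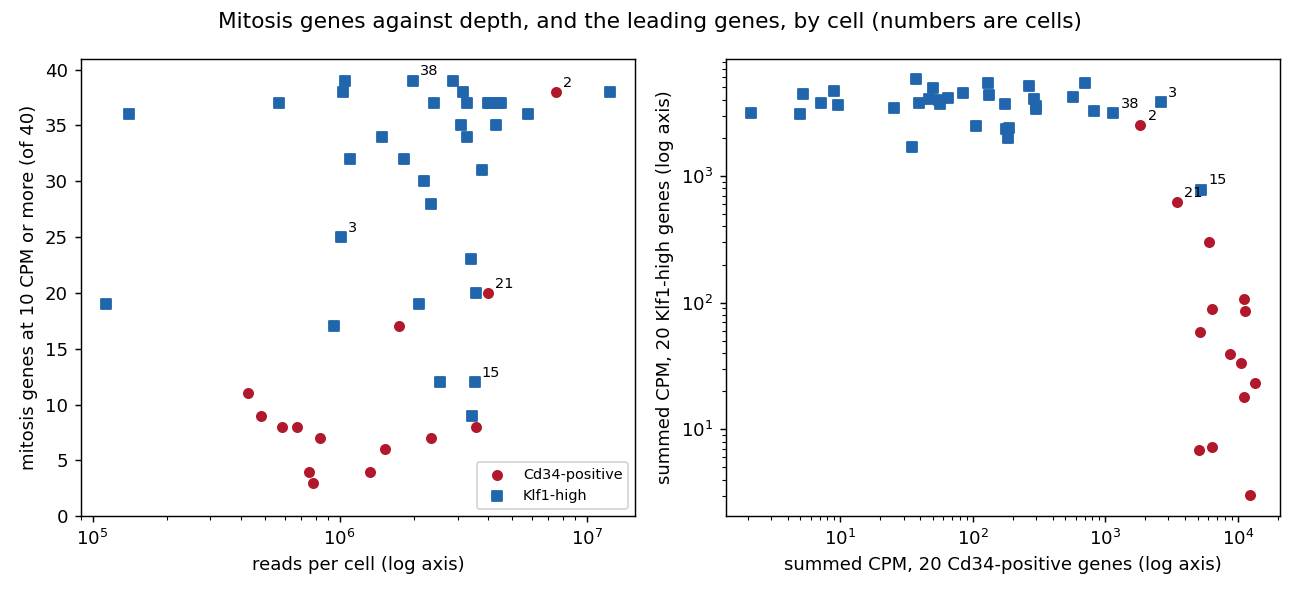
Each point is 1 cell, red for 14 Cd34-positive and blue for 33 Klf1-high cells, with numbers on cells named in the text. Left: mitosis genes at 10 CPM or more, of 40, against reads per cell on a log axis. Cd34-positive cells other than cell 2 lie at 20 genes or fewer at every depth, and 6 Klf1-high cells lie below 20 as well. Right: summed CPM of the 20 leading Klf1-high genes against that of the 20 leading Cd34-positive genes, on log axes, with cells 2, 15 and 21 between the groups.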

How the data were processed

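Smart-seq2 libraries of 52 single cells were analysed. The authors deposited 1 table of estimated counts per gene for 28786 genes, made by trimming with Trim Galore (version 0.5.0) and by Salmon (version 0.03.1, as written there) on GRCm38, per the submitters' processing notes. The sources used here do not give the transcript set or the strand setting, and reads of near-identical, overlapping or antisense genes cannot be told apart. These deposited values, of which 4.23% were not whole, were rounded and divided by each cell's total (CPM). Symbols and coordinates came from GENCODE M21 on GRCm38 (96.6% of genes matched). CPM is not corrected for length, so genes are not compared with each other.

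Groups, filter and size rule are given with the results. Cells, groups, members and 41 gene lists were chosen with earlier results of these data known. Named genes are the 20 protein-coding genes with the largest log2 ratio in each direction outside the lineage lists, up to 3 per list past the rule (5 where over 10 passed) and up to 2 of the highest that did not pass, plus the 10 largest lineage genes per direction as a check. Other genes and the families marked so were named after their values were seen. Some items are not reported here. No doublet caller was run on so few wells. The scripts were tested on simulated counts and used Python 3.11.15, numpy 2.4.6, pandas 2.3.3, scipy 1.17.1, Biopython 1.88 and matplotlib 3.10.9. Alternatives covered pseudocount, filter, scaling, depth, cells, thresholds and rounding.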

Additional observations from a re-analysis of the deposited data

Results flagged for a closer look

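Cells outside both groups also held the leading genes, summed over the 20 genes of each side. Cell 9, a kept cell with 85519 reads, Cd34 at 0 and Klf1 at 35.1 CPM, held 3508 CPM of the Cd34-positive genes and 16312 CPM of the Klf1-high genes, of which Kpna2 made up 7180 CPM. Cell 34, with 39230 CPM of Lyz2, held 2683 CPM of the Cd34-positive genes and 179 CPM of the Klf1-high genes. The 3 cells left out by the cell filter were cell 5 (35.8 and 5569 CPM), cell 10 (151 and 2519 CPM) and cell 12 (2 reads of the Cd34-positive genes and 2805 CPM of the Klf1-high genes), with the Cd34-positive sum before the Klf1-high sum for cells 5 and 10. Only 6 of the Klf1-high genes reached 10 CPM in cell 9 and in cell 10, so few genes carry those sums.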

How the results depend on the processing

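No paired analysis was possible because all cells belong to 1 sample with no replicates. Leaving out whole replicates was likewise not possible. Counts of called genes stayed within 1.5 times of 238 (higher in Cd34-positive cells) and 695 (lower) under pseudocount, filter, scaling, depth and cell choices. Only the size rule moved them further. The counts were 1408 and 1055 by the ratio alone, 128 and 146 at a ratio of at least 4, and 32 and 54 at 90% of cell pairs. By the ratio alone, more genes were thus higher than lower in Cd34-positive cells. Cell 2 was set aside as planned (255 and 914 genes, of which 226 and 688 were among those called with it). Dropping cells 2 and 13 (261 and 896), dropping cell 15 (270 and 720) and limiting Klf1-high cells to those shallower than the deepest remaining Cd34-positive cell (235 and 832) were chosen after the data were seen. Thinning to 300000 reads gave 237 and 672 genes, of which 211 and 595 were called at full depth. With at least 1000000 reads, 7 and 29 cells gave 356 and 730 genes, sharing 177 and 407. Median-of-ratios scaling gave 289 and 542 and shifted the median log2 ratio of all genes to 0.21, against 0.03. Of 183 log2 ratios of named genes, 86 shifted by over 1.5 times with medians in place of means, 46 with a pseudocount of 1 CPM, 40 in cells of at least 1000000 reads, 19 without cell 2 and 18 with Klf1-high cells limited by depth. Pecam1 alone changed sign, to -0.45 with all 52 cells. That setting added cell 5 (307220 reads, 28.3% of them mitochondrial) and cell 12 (32439 reads) to the Klf1-high group. Their part in the change was not tested.

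Depth limits low genes: by the limit of 3 counts, 0 of 14 cells allows a share of up to 21.4% and 0 of 33 up to 9.09%. Label codes differ within both groups (13 of 14 Cd34-positive and 29 of 33 Klf1-high cells share the letter Y), and the sources used here do not say what they stand for.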
